A study of Mus musculus with 4 samples.

Results

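Transcripts of 10 endothelial genes were compared between whole testis RNA and RNA that came down with a FLAG-tagged form of NANOS2, which binds RNA in male germ cells. The genes encode the vascular receptors Flt1, Kdr, Tek, Tie1 and Robo4, the receptor accessory protein Ramp2, the junction and adhesion proteins Cdh5, Pecam1 and Esam, and the secreted factor Egfl7. They were taken from a list of symbols, and every probe whose RefSeq accession named one of them was used, which gave 12 probes, with 2 probes each for Flt1 and Cdh5 and 1 for each of the other 8 genes. The arrays held 16358 genes named in this way. All arrays came from testes of male mice at postnatal day 7 that carry a transgene (Tg) in which a Nanos2 enhancer drives 3xFLAG-Nanos2 together with the 3'UTR. One group was RNA of the starting material (Input, 2 arrays) and the other was RNA from the FLAG immunoprecipitation (FLAG IP, 2 arrays), so both groups share the transgene. The labels do not say how many animals stand behind an array, whether they were pooled or how the immunoprecipitation was done. The duplicates are given as biological, and p-values measure only the spread between them. A FLAG immunoprecipitate from untagged testis was not analysed here, and a difference between the groups is therefore one in the share of a transcript and not a measure of binding.

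Endothelial cells line the blood vessels, including those in the interstitium of the testis between the seminiferous tubules. FLT1 and KDR are receptor tyrosine kinases for vascular endothelial growth factors. KDR carries most of the growth signal, and FLT1 binds the ligand tightly and limits its supply, also as a soluble form. TEK (TIE2) is the receptor for angiopoietins and TIE1 is its partner. CDH5 (VE-cadherin), PECAM1 and ESAM hold neighbouring endothelial cells together, ROBO4 stabilises the vessel wall, and RAMP2 turns the calcitonin receptor-like receptor into a receptor for adrenomedullin.

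The 4 arrays lay on 1 slide and were scanned at 1 time, with between 66.3% and 68.4% of 41174 probes well above background on each. A level is the log2 ratio of a probe's signal to the 75th percentile of its array, and a change is the mean level in the FLAG IP less that in the Input. A probe was called at an adjusted p under 0.05 in limma, with Benjamini-Hochberg adjustment over 27824 tested probes. Of these 4307 were called higher (15.5%) and 5689 lower (20.4%), 35.9% in all, with a median change of −0.13. Of all calls 43.1% were higher, against 4.41% with scaling to the spike-in spots, which moved the median change of all probes by −0.93 and gives a change between 0 and 0.93 the opposite sign. Background correction by normexp moved that median by 0.15. Precision is limited by the number of arrays.

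The endothelial transcripts did not move together. Flt1 was 2.44-fold higher in the FLAG IP by its probe A_51_P398723. Cdh5 by its probe A_51_P309056, Ramp2, Robo4 and Egfl7 were lower, by 2.22-fold, 1.64-fold, 1.60-fold and 1.52-fold. The brighter probe of Cdh5, A_52_P248604, was 1.51-fold lower and was not called (adjusted p = 0.054 in limma). The transcripts of Kdr, Tek, Tie1, Pecam1 and Esam were not called. All 12 probes passed the filter on dim signals, and 1 was called higher (8.33%, against 15.5% of all tested probes), 4 lower (33.3%, against 20.4%) and 7 were not called. The groups' arrays did not overlap for 2 probes with a higher FLAG IP (30.3% of all tested probes) and for 6 with a lower one (50%, against 43.8% of all tested probes). The counts are close to those of the arrays as a whole, and the median change of the 12 probes was −0.60 beside −0.13 over all tested probes.

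**Figure D1:**
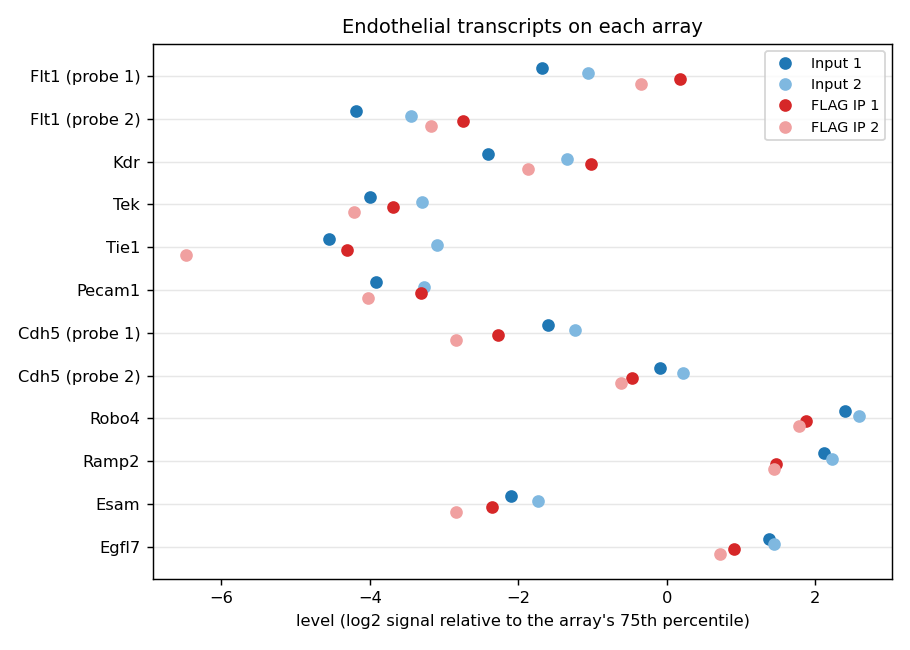
Level of each endothelial probe on each array, as log2 signal relative to the 75th percentile of the array (horizontal axis), with 1 point per array and the 2 groups in blue (Input) and red (FLAG IP). Both FLAG IP arrays lie to the right of both Input arrays for the 2 probes of Flt1 and to the left for Cdh5, Robo4, Ramp2, Esam and Egfl7. Probe 1 is A_51_P398723 for Flt1 and A_51_P309056 for Cdh5, and positions of different probes are not comparable with each other.

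Among the receptors for vascular endothelial growth factors, Flt1 (RefSeq transcript NM_010228) had levels of −1.68 and −1.06 on Input 1 and 2, and of 0.18 and −0.35 on FLAG IP 1 and 2, with probe A_51_P398723. Each FLAG IP array was above each Input array, by between 0.71 and 1.86. The change was 1.28 ± 0.30 (SE, n = 2 arrays per group, adjusted p = 0.031 in limma). The other probe of the gene, A_52_P520859, read −4.19 and −3.45 in the Input and −2.75 and −3.17 in the FLAG IP, again without overlap, with a change of 0.86 ± 0.31 that was not called (adjusted p = 0.086). The array files used here do not give where the probes lie in the transcript, so the membrane and soluble forms of the receptor were not told apart. The Flt1 call ended without Input replicate 1 (0.97, adjusted p = 0.12), without FLAG IP replicate 1 (1.02, adjusted p = 0.062) and with the probes of a gene averaged (1.07, adjusted p = 0.051). With no filter on dim probes it ended at the same change (adjusted p = 0.077), and under spike-in scaling it was 0.36 (adjusted p = 0.43), or 1.42 above the median of all probes in that scaling. Under spike-in scaling limma gave every endothelial probe the same SE of 0.40, so p-values there do not reflect a probe's own spread.

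Kdr (NM_010612), the main signalling receptor for the same ligands, read −2.41 and −1.34 on the Input arrays and −1.02 and −1.87 on the FLAG IP arrays. The groups overlapped, since the level of FLAG IP 2 lay between those of the Input arrays. The change was 0.43 ± 0.46 (adjusted p = 0.50), with a 95% interval from −0.78 to 1.63. This interval holds no change as well as a rise as large as that of Flt1.

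The angiopoietin receptor Tek (NM_013690) had levels of −3.99 and −3.30 in the Input and of −3.69 and −4.22 in the FLAG IP. The groups overlapped, and the change was −0.30 ± 0.31 (adjusted p = 0.47, 95% interval −1.12 to 0.51). Its partner Tie1 (NM_011587) read −4.55 and −3.09 in the Input and −4.30 and −6.47 in the FLAG IP, where it was well above background on 1 of the 2 arrays. The replicates of Tie1 differed by 1.46 in the Input and 2.17 in the FLAG IP, the widest spread of the 12 probes. Its change of −1.57 ± 0.85 was not called (adjusted p = 0.21), and leaving out 1 array moved it in both directions. It was −2.65 (adjusted p = 0.038) without FLAG IP replicate 1, −0.49 (adjusted p = 0.56) without FLAG IP replicate 2, −2.30 (adjusted p = 0.15) without Input replicate 1 and −0.84 (adjusted p = 0.53) without Input replicate 2. Under normexp it was −0.45 (adjusted p = 0.33).

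Of the junction and adhesion genes, Cdh5 (NM_009868), the cadherin of endothelial adherens junctions, was lower in the FLAG IP with both probes. Probe A_51_P309056 read −1.60 and −1.23 in the Input and −2.28 and −2.85 in the FLAG IP. It fell by 1.15 ± 0.26 on the log2 scale (adjusted p = 0.028), and neither FLAG IP array reached the level of an Input array. Probe A_52_P248604 read −0.10 and 0.21 in the Input and −0.46 and −0.61 in the FLAG IP. Its groups did not overlap either, and its change of −0.60 ± 0.17 was just short of a call (adjusted p = 0.054). It was called with the probes averaged (−0.87, adjusted p = 0.034).

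Esam (NM_027102), an immunoglobulin-type adhesion molecule at endothelial tight junctions, read −2.10 and −1.73 in the Input and −2.35 and −2.84 in the FLAG IP. The groups did not overlap, but the change of −0.68 ± 0.24 was not called (adjusted p = 0.082). It was −0.92 (adjusted p = 0.038) without FLAG IP replicate 1, −0.44 (adjusted p = 0.17) without FLAG IP replicate 2, −0.86 (adjusted p = 0.14) without Input replicate 1 and −0.50 (adjusted p = 0.33) without Input replicate 2. Pecam1 (NM_008816), an adhesion molecule of endothelial cells, platelets and leukocytes, read −3.91 and −3.27 in the Input and −3.31 and −4.03 in the FLAG IP. Its groups overlapped, with a change of −0.08 ± 0.34 (adjusted p = 0.87, 95% interval −0.95 to 0.80).

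The remaining 3 genes had close replicates and were called lower. Robo4 (NM_028783) read 2.41 and 2.59 in the Input and 1.87 and 1.77 in the FLAG IP, and fell by 0.67 ± 0.15 (adjusted p = 0.028). Ramp2 (NM_019444) read 2.12 and 2.22 in the Input and 1.47 and 1.44 in the FLAG IP, and fell by 0.71 ± 0.14 (adjusted p = 0.021). Egfl7 (NM_178444), a factor that endothelial cells secrete into the vessel matrix, read 1.38 and 1.44 in the Input and 0.90 and 0.72 in the FLAG IP, and fell by 0.60 ± 0.15 (adjusted p = 0.035). In all 3 the lowest Input array was above the highest FLAG IP array, by 0.54 for Robo4, 0.64 for Ramp2 and 0.48 for Egfl7. The calls of Cdh5, Robo4, Ramp2 and Egfl7 ended without Input replicate 1 (adjusted p from 0.070 to 0.19) and without Input replicate 2 (0.12 to 0.21), and that of Egfl7 also without FLAG IP replicate 2 (0.064). Their changes stayed below 0 in each of these fits, from −0.51 to −1.33. With no filter on dim probes Cdh5 (adjusted p = 0.069) and Egfl7 (adjusted p = 0.056) were not called. Calls over all probes dropped as well without an Input array, to 1401 higher and 1015 lower without replicate 1 and to 1566 and 978 without replicate 2.

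**Figure D2:**
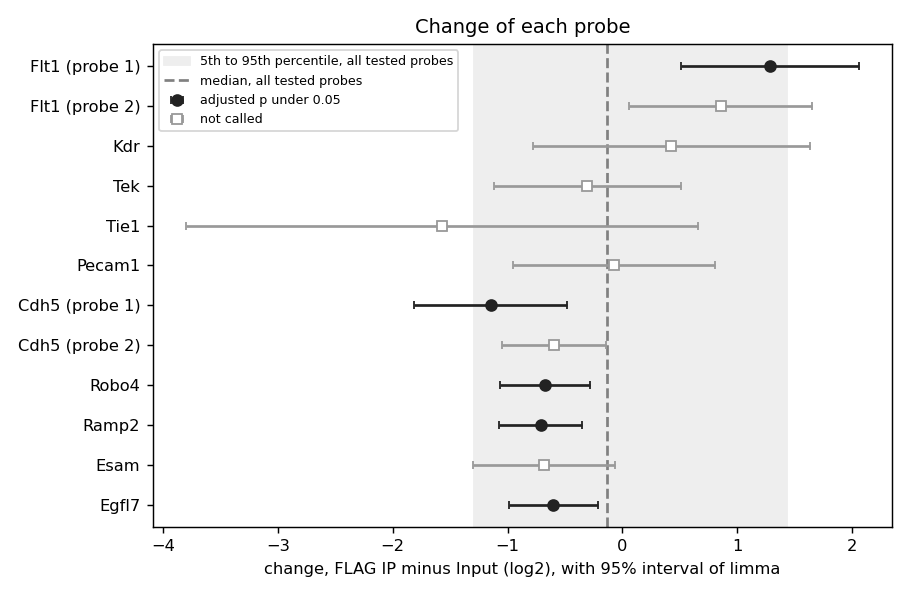
Change of each endothelial probe, FLAG IP minus Input in log2 units (horizontal axis), with its 95% interval from limma. Filled circles were called and open squares were not, the grey band spans the 5th to 95th percentile of the changes of all tested probes and the dashed line is their median of −0.13. The called probes lie on both sides of 0, from −1.15 for Cdh5 to 1.28 for Flt1, and the interval of Tie1 is the widest.

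Egfl7 is also the host gene of an endothelial microRNA, miR-126, which is shown as a second product of this gene. Its mature strand lies within the Egfl7 gene at chr2:26591402-26591423 on the plus strand of GRCm38.p6 (sequence from RefSeq, 5′ to 3′, with the seed, bases 2 to 8, in capitals).
mmu-miR-126a-3p: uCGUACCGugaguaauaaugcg
The probe of Egfl7 measures the host transcript, and the microRNA was not analysed here. In the same assembly Robo4 and Esam are near neighbours on chromosome 9, with 2 coding genes between them, and their changes were −0.67 and −0.68. Flt1 and Kdr share chromosome 5, and Tek and Tie1 share chromosome 4.

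A difference between 2 probes of the same array does not depend on scaling to the 75th percentile or to spike-in spots. Flt1 (A_51_P398723) was set against the other probes because its change was the highest of the 12, so these differences are all above 0 by that choice and restate the changes given above. The signal of Flt1 (A_51_P398723) minus that of Cdh5 (A_51_P309056) on the same array was −0.08 and 0.18 on the Input arrays and 2.46 and 2.50 on the FLAG IP arrays. The value itself depends on the probes, and what is read here is its difference between the groups, 2.43 higher in the FLAG IP. The same difference between groups was 2.0 against Ramp2, 1.96 against Robo4 and against Esam, 1.89 against Egfl7 and 1.88 against the other probe of Cdh5. Against the receptors it was 0.86 for Kdr, 1.59 for Tek and 2.85 for Tie1, and against Pecam1 by 1.36. Against the second Flt1 probe it was 0.43. Across the 13 alternative settings that keep single probes, the value for Cdh5 (A_51_P309056) was between 2.07 and 2.56. Only normexp, quantile normalization and leaving out an array moved it. The deposited table gave the same value, and the remaining settings return the same difference by construction.

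**Figure D3:**
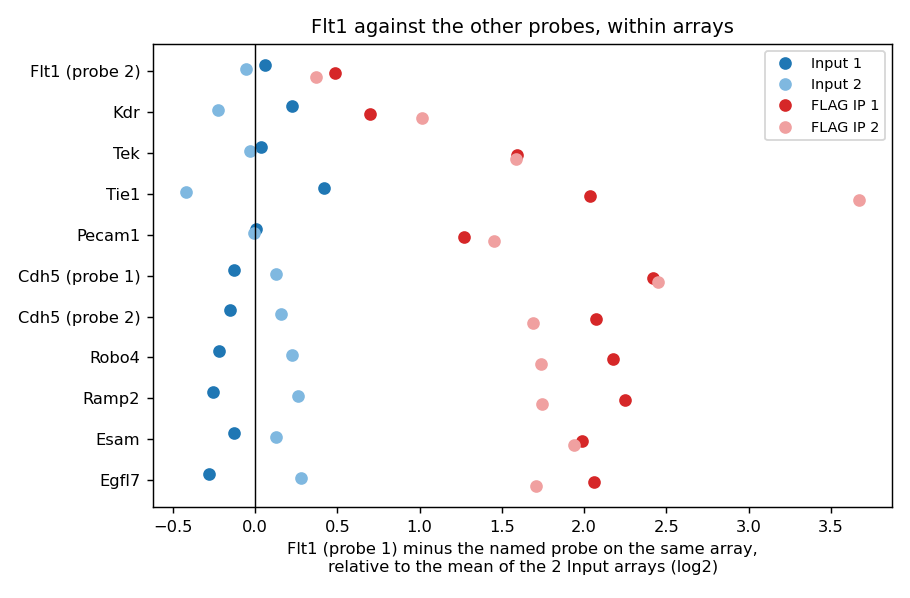
Signal of Flt1 (A_51_P398723) minus that of each other endothelial probe on the same array, in log2 units relative to the mean of the Input arrays (horizontal axis), with 1 point per array. The red FLAG IP points lie to the right of the blue Input points in every row, by 0.43 on average for the second Flt1 probe and by 2.43 for Cdh5 (A_51_P309056), a direction set by choosing the probe with the highest change.

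The replicates themselves differed in one direction. Input 2 was above Input 1, and FLAG IP 1 above FLAG IP 2, for 12 of 12 endothelial probes. Over all tested probes 49.8% were higher on Input 2 than on Input 1, 53.6% were higher on FLAG IP 1 than on FLAG IP 2, and 35% did both. Among the 11562 tested probes with a mean level below −2 the share that did both was 42.5%. The median differences of the endothelial probes were 0.49 between the Input arrays and 0.51 between the FLAG IP arrays, against −0.0014 and 0.03 over all tested probes. The largest were those of Tie1 and Kdr (1.07 in the Input and 0.85 in the FLAG IP), and the smallest were that of Egfl7 in the Input (0.063) and that of Ramp2 in the FLAG IP (0.03). Since these are replicates of a group, the differences enter the error of each change, and the median SE of the 12 probes was 0.28 against 0.17 over all tested probes.

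Genes listed for other cell types differed in how often they showed this order, against 35% of all tested probes. The reverse order in both groups was seen in 31.6% of all tested probes. Of 13 pericyte and vascular smooth muscle markers, 11 were higher both on Input 2 than on Input 1 and on FLAG IP 1 than on FLAG IP 2, and so were 23 of 32 other endothelial genes and 9 of 15 markers of undifferentiated spermatogonia. Sertoli cell markers did so in 4 of 13 genes, with 2 in the reverse order, and macrophage and leukocyte markers in 5 of 11, with 4 in the reverse order. Of 9 Leydig cell markers 0 showed the order and 8 showed the reverse in both groups, with median differences of −0.38 for Input and −0.62 in the FLAG IP. In whole tissue, fewer cells of a type and less RNA per cell cannot be told apart, and the part of tissue composition in the changes was not tested.

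**Figure D4:**
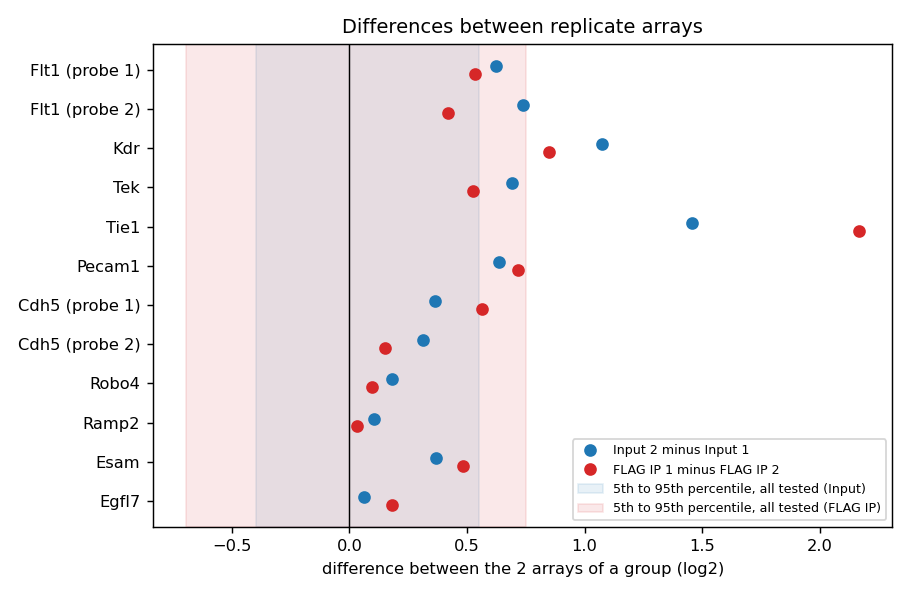
Difference between the 2 arrays of a group for each endothelial probe in log2 units (horizontal axis), as Input 2 minus Input 1 in blue and FLAG IP 1 minus FLAG IP 2 in red. Shaded bands span the 5th to 95th percentile of the same differences over all tested probes. All points lie above 0.

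The ligands and partners of these receptors were described from a list of 25 genes, of which 24 had a probe and 20 were tested, with each gene read by its brightest tested probe. Of 37 list genes named here and called, 14 were still called without Input replicate 1, 19 without Input replicate 2, 34 without FLAG IP replicate 1 and 35 without FLAG IP replicate 2. The brightest-probe reading called 15.9% of all named genes higher and 19.0% lower, with a median change of −0.13. Of the 20 genes 1 was higher, 6 were lower and 13 were not called, with a median of −0.36. Ramp3, which like Ramp2 pairs with the calcitonin receptor-like receptor, rose by 1.42 ± 0.15 (adjusted p = 0.0065), from Input levels of −1.27 and −1.24 to FLAG IP levels of 0.26 and 0.07. Ramp1, named here as the third of this family, fell by 0.78 ± 0.15 (adjusted p = 0.019), and their shared receptor Calcrl was not called (0.49, adjusted p = 0.15). The 3 accessory proteins thus included 1 higher and 2 lower transcripts, although the call of Ramp1 ended under normexp (adjusted p = 0.056) and that of Ramp3 under spike-in scaling (0.50, adjusted p = 0.26). Slit3, a secreted guidance factor, fell by 1.30 ± 0.22 (adjusted p = 0.016), from Input levels of 0.59 and 0.87 to FLAG IP levels of −0.33 and −0.81. The angiopoietin Angpt4 was 1.41-fold lower with its FLAG IP signals, both not well above background, raised to a floor. Its measured change was 0.087 under normexp background correction (adjusted p = 0.71). Of the growth factors, named here as ligands of Flt1 and Kdr, Vegfb fell by 0.81 ± 0.14 with its brightest probe (adjusted p = 0.017). Vegfa had changes of −0.10, −0.26 and −0.56 with its 3 probes (adjusted p = 0.63, 0.29 and 0.048), Pgf was at 0.47 (adjusted p = 0.063) and Vegfc at −0.39 (adjusted p = 0.17). Flt4, Nrp2, Angpt1 and Adm2 had no probe well above background on both arrays of a group and were not tested.

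Of 32 other endothelial genes tested, 3 were higher, 9 lower and 20 not called, with a median of −0.43. Ecscr, a regulator of endothelial survival and migration, fell by 1.25 ± 0.16 (adjusted p = 0.0088), from Input levels of −0.01 and −0.12 to FLAG IP levels of −1.44 and −1.19. Stab1, a scavenger receptor of sinusoidal endothelium and macrophages, fell by 1.05 ± 0.13 (adjusted p = 0.0090), and its other probe was at −1.04. Clec14a, an endothelial lectin-type receptor, was 2.46-fold lower by its measured signal, with FLAG IP signals not well above background. It was not called under normexp (adjusted p = 0.45). The 52 candidates of this list and the list of transcription factors were ranked by Euclidean distance to the median of the 10 genes. Distances used centred log2 levels on the 4 arrays. Nearest was Gja4, a vascular connexin (distance 0.31, change 0.28, adjusted p = 0.48 in limma). It was followed by Dll4, an endothelial Notch ligand (0.42, change 0.81, adjusted p = 0.032), and Cd93, an endothelial lectin-type protein (0.45, change 0.33, adjusted p = 0.22). That median is set by the genes of middle level and, relative to its mean over the arrays, was −0.62 and 0.07 in the Input and 0.52 and 0.02 in the FLAG IP. It was thus higher in the FLAG IP, like the mean levels of the 3 nearest genes, of which only Dll4 was called. The changes of 9 of the 12 endothelial probes were below 0, so the distance shows no likeness to most of the 10 genes.

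Endothelial transcription factors were called in both directions, with 7 of 20 higher, 4 lower and 9 not called, and a median of −0.06. Hhex, a homeobox factor of early endothelial and other lineages, rose by 3.01 ± 0.15 (adjusted p = 0.0041), from Input levels of 0.33 and 0.22 to FLAG IP levels of 3.21 and 3.36. Hey2, a repressor downstream of Notch, rose by 2.32 ± 0.19 (adjusted p = 0.0047) and Foxc2, a forkhead factor of lymphatic vessels, by 1.93 ± 0.15 (adjusted p = 0.0045). The 4 lower factors, named here because they are few, were the SOX family members Sox18 (−1.03), Sox17 (−0.996) and Sox7 (−0.85), and Mef2c (−0.92). All 3 members of the SoxF family, which act in endothelial cells, were thus among the 4, and Sox7 lost its call under normexp (adjusted p = 0.059).

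Junction partners had 2 of 16 tested genes higher, 3 lower and 11 not called, with a median of −0.12. Cdh1 (E-cadherin), which is also a marker of undifferentiated spermatogonia, rose by 1.72 ± 0.17 (adjusted p = 0.0058), and Igsf5, an immunoglobulin-type junction protein, by 1.29 ± 0.31 (adjusted p = 0.034). Jam2, a junctional adhesion molecule, fell by 1.19 ± 0.16 (adjusted p = 0.0092), from Input levels of 2.51 and 2.56 to FLAG IP levels of 1.46 and 1.22. The 3 pericyte and vascular smooth muscle markers called lower, of 13 tested, were Higd1b (−1.57), Notch3 (−1.52), a receptor of mural cells, and Cnn1 (−0.65), a smooth muscle calponin. The median of that list was −0.65, and its changes ran from −1.57 to −0.14.

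Lists of other testis cells moved on the same arrays, and their part in the endothelial values was not tested. Sertoli cell markers were lower in 7 of 13 genes, with a summed signal of 221 to 228 times the array's 75th percentile in the Input and 145 to 155 in the FLAG IP. Tsx was 2.82-fold lower with its FLAG IP signals, both not well above background, raised to a floor. Ptgds (−1.32) and Defb36 (−1.14) had the next largest changes in that list. Leydig cell markers were lower in 6 of 9 (sums of 32.9 to 43.5 for Input and 15.8 to 20.1 for FLAG IP), led by Insl3 (−1.82), Hao2 (−1.19) and Hsd3b6 (−1.18). Macrophage and leukocyte markers, which matter here because Pecam1 and Stab1 are also made by these cells, were lower in 8 of 11 (5.76 to 5.88 against 3.33 to 3.38), led by Tyrobp (−1.90), Aif1 (−1.39) and Cd163 (−1.04). Of 5 tested platelet and red blood cell markers Hba-a1 (−1.29) and Pf4 (−0.68) were lower and Epor (0.77) was higher. Their summed signal was 20.5 to 30.7 in the Input and 10.1 to 12.7 in the FLAG IP. Most of this sum is Hba-a1 on each array, so it does not describe the other markers. Markers of undifferentiated spermatogonia were higher in 12 of 15 and lower in 1, led by Lhx1 (4.13), Eomes (4.08) and Neurog3 (3.69). Their sums were 8.81 to 9.09 in the Input and 34.0 to 43.6 in the FLAG IP. Eomes was well above background on only 1 of the 2 Input arrays. The other endothelial genes summed to 39.9 and 45.5 in the Input and to 33.3 and 28.2 in the FLAG IP. All these sums are weighted to the brightest probes, and a few genes make up most of this last one.

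**Figure D5:**
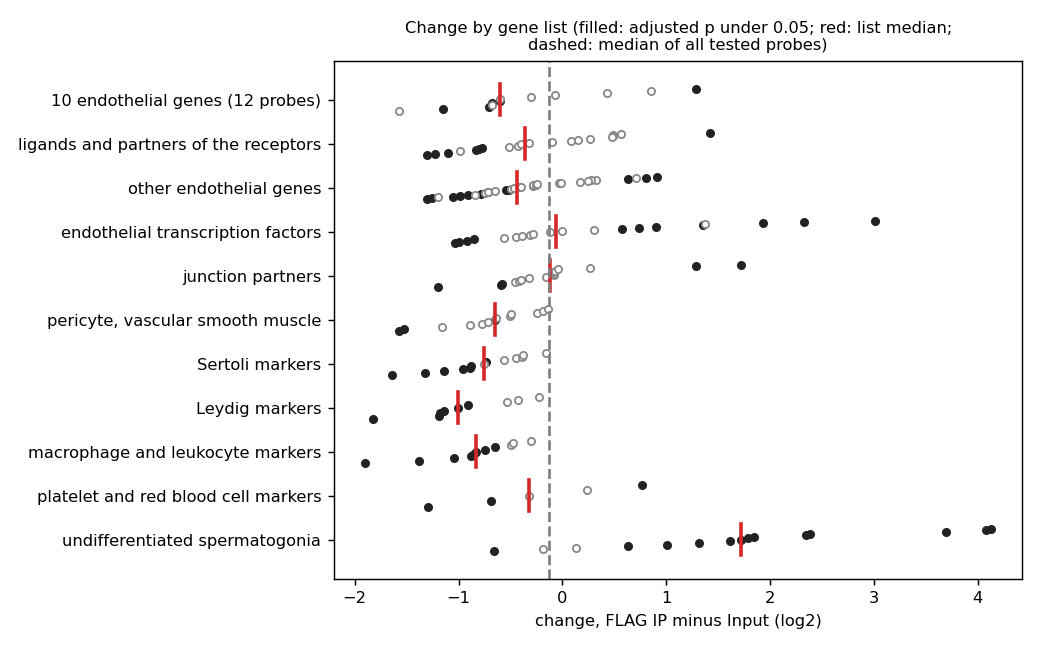
Change of each gene, FLAG IP minus Input in log2 units (horizontal axis), for the 12 endothelial probes and for each related list, with 1 point per gene read by its brightest tested probe. Filled points were called in limma, red bars are list medians and the dashed line is the median of all tested probes. The endothelial probes spread from −1.57 to 1.28 around a median of −0.60, and the spermatogonial markers lie furthest to the right with a median of 1.72.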

How the data were processed

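RNA of 2 Input and 2 FLAG IP samples was hybridised to single-colour Agilent arrays, and groups came from the sample titles. Postnatal day 7 was taken from titles and characteristics, although a description field gives a fetal gonad. The deposited intensity files were made with Agilent Feature Extraction (version 9.5 per the submitters' processing notes), and per the file headers they hold a background-subtracted processed signal, raw median signals and flags. The deposited table holds log2 values that matched the processed signal less a constant per array within 0.01 for over 99.6% of probes, with column medians from 6.15 to 6.25, and the software of its scaling is not known here.

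Of 43379 spots per array that were not controls, 62 to 90 feature outliers were left out, 0 were saturated and spots of a probe were averaged. For levels, log2 processed signals were taken relative to the 75th percentile on each array. The signal at that percentile was 1511 and 1724 in the Input and 1055 and 1303 in the FLAG IP. Probes were named by RefSeq accession without version on assembly GRCm38.p6, which named 55.7% of probes. The array was designed on another build, so no probe coordinates are given. A probe was tested if either group had it well above background on both arrays (a share of 0.5 or more of its spots flagged so). The test was made with limma 3.58.1 in R 4.3.3 (lmFit, eBayes, two-sided, no covariates), after a check on simulated data. Where both arrays of a group were not well above background, the fold was read with a floor. The dim arrays enter at their own level or, if higher, at the lowest level among probes above background. This floor is not a detection limit of the probe, so the fold is not a strict lower bound. Named genes are the 10 genes, up to 3 of the largest changes per related list (called genes before others), and the 3 nearest in level. Ramp1, Calcrl, the growth factors and the SOX and Mef2c genes were added after their values were seen. The genes and lists were chosen with earlier results of these data known. Alternatives were background correction, scaling, filters, probe summaries, moderation, blocks, the deposited table and leaving out each array.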

Additional observations from a re-analysis of the deposited data

How the results depend on the processing

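The called probes of Flt1, Robo4, Ramp2 and Egfl7 kept their direction under 15 alternative settings, and that of Cdh5 under the 13 that read it. A change of filter, brightest-probe reading, moderation or block refits the same values, so the direction could not change in those settings. Over all tested probes 780 were called higher and 16903 lower under spike-in scaling, and lower calls were 3701 with no filter on dim probes and 2918 with the replicate block. Of the 12 endothelial probes, 2 were called higher under normexp background correction, which used raw median signals, and 0 under spike-in scaling, where 9 were lower with a median of −1.52 and 0 were higher at an unadjusted p under 0.05 in limma. In that scaling the second Flt1 probe (−0.07) and Kdr (−0.50) changed sign, uncalled. Calls of endothelial probes under spike-in scaling rest on 1 SE shared by all 12 probes (0.40) and not on each probe's own spread. With no filter 0 were called higher (1 unadjusted) and 2 lower, and with probes averaged 0 were higher (1 unadjusted). Leaving out 1 array gave 1401 to 4886 calls higher and 978 to 6020 lower over all probes, 0 to 1 endothelial probes higher (1 to 2 unadjusted), 0 to 6 lower (1 to 7 unadjusted) and medians from −0.70 to −0.46, with the lone array of a group assumed to vary like the others. Kdr, Tek and Pecam1, never called except Tek and Pecam1 under spike-in scaling, changed sign in 2, 2 and 3 settings. Groups share replicate numbers, and the correlation of deviations of arrays with the same number was −0.38. The labels do not give a pairing, and whether the numbers are crossed was not tested. With the replicate block 1 endothelial probe was higher (Flt1) and 1 lower (Cdh5), and Robo4, Ramp2 and Egfl7 lost their calls (adjusted p from 0.074 to 0.11). The crossed pairing, added after the data were seen, gave 2 higher and 7 lower. All arrays lie on 1 slide, so no slide block could be fitted. The median SE over all tested probes was 0.20 below a level of −2 and 0.16 above it. Of the counts of the related lists over all settings 228 stayed within 1.5 times and 72 did not, and 130 of their medians moved by less than the spread between array pairs and 20 by more. Of the 37 called list genes, those that changed sign were Angpt4 under normexp (0.087) and Epor (−0.16) and Dll4 (−0.12) under spike-in scaling, and 9 lost their call with no filter.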
